A study of Homo sapiens with 10 samples.

Results

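Receptors for Wnt ligands were followed in 10 RNA-seq libraries of H1, a human embryonic stem cell line. The 9 genes described here are the frizzled receptors FZD1, FZD2, FZD3, FZD5, FZD6, FZD7 and FZD8 and the co-receptors LRP5 and LRP6, chosen by name from the 14785 rows of a table of genes and transposable elements. All 9 were found in the table, where the filter on low values removed no row. H1 cells labelled as wild type in genotype received virus, packaged in 293T cells, that carries a short hairpin RNA (shRNA), and were then selected with puromycin. The knockdown groups, named shSMARCA4, shMAFK, shE2F6 and shKDM1A, carry an shRNA against SMARCA4 (a chromatin remodeller), MAFK (a small MAF transcription factor), E2F6 (a repressive E2F factor) or KDM1A (a histone demethylase). The control group, shLUC, carries an shRNA against luciferase, so all 5 groups share the virus and the selection, and there is no group without them. Each group has 2 libraries, which the submitters describe as biological duplicates. The time between infection and harvest, and the number of hairpins for each target, are not given in the sources used here.

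Wnt ligands are secreted lipid-modified proteins that bind the cysteine-rich extracellular domain of a frizzled, a receptor with several membrane-spanning segments. When LRP5 or LRP6 is bound at the same time, Dishevelled is recruited, the complex that destroys beta-catenin is held back, and beta-catenin acts with TCF and LEF factors on target genes. Frizzleds also act without LRP co-receptors, in planar cell polarity. By sequence the members fall into the subgroups FZD1, FZD2 and FZD7, FZD5 and FZD8, and FZD3 and FZD6. In human embryonic stem cells FZD7 is known as an abundant frizzled, and Wnt signalling drives exit toward primitive streak and mesendoderm.

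FZD2 led to this choice of genes, because its low value in shKDM1A was known from the same table, so the shKDM1A values of all members are given as a description with no test. The other comparisons with shLUC use the same 2 control libraries, so the calls of FZD2 against shLUC, where they are counted, are not independent of its choice and support nothing. Values are whole numbers that the authors normalized, called normalized tag counts here, and log2 changes are of log2(value + 1). The totals of the 10 libraries lay between 22836548 and 22855295, which the normalization made nearly equal, so the read depth is unknown. The 2 shKDM1A libraries stood farther apart than those of any other group, with a root-mean-square SD between replicates over all rows of 0.53 on the log2 scale. In the other groups that SD lay between 0.264 (shMAFK) and 0.335 (shSMARCA4). Of the targeted genes, SMARCA4 had 8086 and 8374 normalized tag counts in shLUC and 1100 and 985 in shSMARCA4, 12.7% of the control mean (limma adjusted p 8.55e-05). KDM1A had 3290 and 1879 in its knockdown against 6344 and 5925 (42.1%), and E2F6 had 336 and 304 against 491 and 553 (61.3%), without overlap but not past the test (limma adjusted p 0.132 and 0.774). MAFK had 82 and 216 in its knockdown against 212 and 288 (59.6%, limma adjusted p 0.572), so shMAFK replicate 2 lay within the control values. All 10 pluripotency markers examined were in the table, and their summed value lay between 131473 and 256499 per library, the highest being shKDM1A replicate 1. POU5F1 made up most of that highest sum, with 148866 against 35710 in both shLUC libraries. None of the other markers exceeded both controls in that library. SOX2, LIN28A and DNMT3B lay at or between the controls there, and NANOG, DPPA4, TDGF1, PRDM14, SALL4 and ZFP42 lay below both. In shSMARCA4 markers of other fates were at another level. The sum of the 3 measured of 8 primitive streak and mesoderm markers was 142 and 147 in shLUC and 4343 and 896 in shSMARCA4, where MIXL1 (1809 and 132) and EOMES (2430 and 724) made up most of it and PDGFRA, at 104 and 40 against 108 and 99, was not higher. That of the 2 measured of 7 endoderm markers was 48 and 23 against 3146 and 342, and in the other groups these sums lay at most at 182 and 61, with FOXA2, EOMES or CER1 at 0 in single libraries outside shSMARCA4. The sum of the 2 measured of 7 neural crest markers was lower in shSMARCA4 than in shLUC (512 and 558 against 1271 and 1227). That of the 2 measured of 8 trophoblast markers was also lower (86 and 80 against 278 and 355). KRT7 (30 and 44 against 218 and 296) made most of that trophoblast difference, with TFAP2C at 56 and 36 against 60 and 59. The sum of the 2 measured of 8 neural ectoderm markers, 6605 and 4172 against 5395 and 6292, was not separated from the controls. ZIC1 alone was higher (462 and 1004 against 95 and 149).

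Promoters were read where the RefSeq table (GRCh38.p14) gives one, which it does for 4 of the 9 members: FZD1, FZD5, FZD8 and LRP5. Those of FZD1 and FZD8 are printed because these are the receptors with the widest relative spread between groups after FZD2. The FZD1 stretch is chr7:91264183-91264363 on the plus strand and the FZD8 stretch chr10:35642297-35642546 on the minus strand. Each holds the bases, up to 250 before the RefSeq start site, that also lie before the gene start in GENCODE release 29, 5′ to 3′ in the direction of transcription. The starts differ between these annotations, so the FZD1 stretch is the shorter one. Capitals mark matches to a GC box, a CCAAT box or a TATA box.
FZD1: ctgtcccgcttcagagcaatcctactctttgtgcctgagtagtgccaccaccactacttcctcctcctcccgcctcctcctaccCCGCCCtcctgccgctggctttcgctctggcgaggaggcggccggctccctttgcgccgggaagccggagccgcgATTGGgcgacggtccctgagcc
FZD8: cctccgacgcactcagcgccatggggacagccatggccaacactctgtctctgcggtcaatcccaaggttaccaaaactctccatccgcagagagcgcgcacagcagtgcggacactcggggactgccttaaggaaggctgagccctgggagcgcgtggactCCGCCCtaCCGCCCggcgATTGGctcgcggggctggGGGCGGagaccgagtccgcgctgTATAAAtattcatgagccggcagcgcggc
Letters were searched on both strands, in the whole 250 bases before each RefSeq start. The GC box (GGGCGG) was found at 1 place before FZD1, 3 before FZD8, 6 before FZD5 (where the last pair overlaps by a base) and 3 before LRP5, and in 42.6% of all 35116 promoters. The CCAAT box (CCAAT) stood once before FZD1, FZD5 and FZD8 (32% of all promoters), and the TATA box (TATAAA) before FZD8 alone among the 4 (10.7%). Searches were also made for E2F sites (TTTCCCGC, TTTGGCGC, TTTCGCGC or TTTGCCGC, 2.79% of all promoters), the MAF half-site (TGCTGA, 14%), the shared site of CNC and small MAF factors (TGACNNNGC, 10.9%), the E-box (CACGTG, 6.34%) and a TCF/LEF site (ATCAAAG, 2.26%). None of these letters occurred in the 4 windows, which says nothing about binding.

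FZD2 was lower in every knockdown library than in either control. FZD2 (ENSG00000180340, chromosome 17, 44557459 to 44559570, plus strand, GRCh38 in GENCODE release 29) lies in a single exon, with no other annotated gene over it. It had 780 and 755 normalized tag counts in the shLUC libraries. The values were 38 and 80 in shKDM1A, 422 and 418 in shE2F6, 224 and 258 in shMAFK, and 333 and 300 in shSMARCA4. The 2 libraries of each group lay next to each other, and no 2 groups overlapped. The whole order from shLUC through shE2F6, shSMARCA4 and shMAFK to shKDM1A therefore holds in single libraries as well as in means. Its ends are not independent of the choice of FZD2. The share of all rows whose 5 groups separate in this way was not counted.

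Against the shLUC mean of 767.5 ± 17.7 (SD, n = 2), FZD2 stood at 7.69% in shKDM1A (59 ± 29.7, SD, n = 2). It stood at 31.4% in shMAFK (241 ± 24), 41.2% in shSMARCA4 (316.5 ± 23.3) and 54.7% in shE2F6 (420 ± 2.83). On the log2 scale the differences were -3.77 (shKDM1A), -1.67 (shMAFK), -1.28 (shSMARCA4) and -0.87 (shE2F6), each with an SE of 0.29 from the shared fit. These 4 differences share their control libraries, so they are not 4 separate observations. In shKDM1A the difference was -4.30 without replicate 2 and -3.25 without replicate 1. The amount of KDM1A transcript left did not follow the same order within that group: replicate 1 held 3290 normalized tag counts of KDM1A and 38 of FZD2, replicate 2 held 1879 and 80.

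A comparison of FZD2 that uses neither shLUC nor the shKDM1A means is the moderated F-test among shSMARCA4, shMAFK and shE2F6. FZD2 did not pass it (limma adjusted F-test p 0.264 over all rows), although the 3 pairs of values do not overlap. Without both shKDM1A libraries, whose spread enters the shared error, the limma adjusted F-test p was 0.0139. FZD2 in shMAFK minus that in shE2F6 gave -0.80 on the log2 scale (SE 0.29, limma adjusted p 0.274).

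All 8 knockdown libraries lay below both controls for 1.86% of all rows, and among the 9 members for FZD2 alone. They lay above both controls for 2.06% of all rows and among the members for FZD3 alone. Both shKDM1A libraries lay below the 8 others for 3.36% of all rows and again for FZD2 alone among the members. They lay above the 8 others for 3.52% of all rows and for 0 members. Both shMAFK libraries were the lowest for 4.8% of all rows and the highest for 5.14%, and for 0 members in either direction; for both shE2F6 libraries as the highest these figures were 3% and 0.

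**Figure D1:**
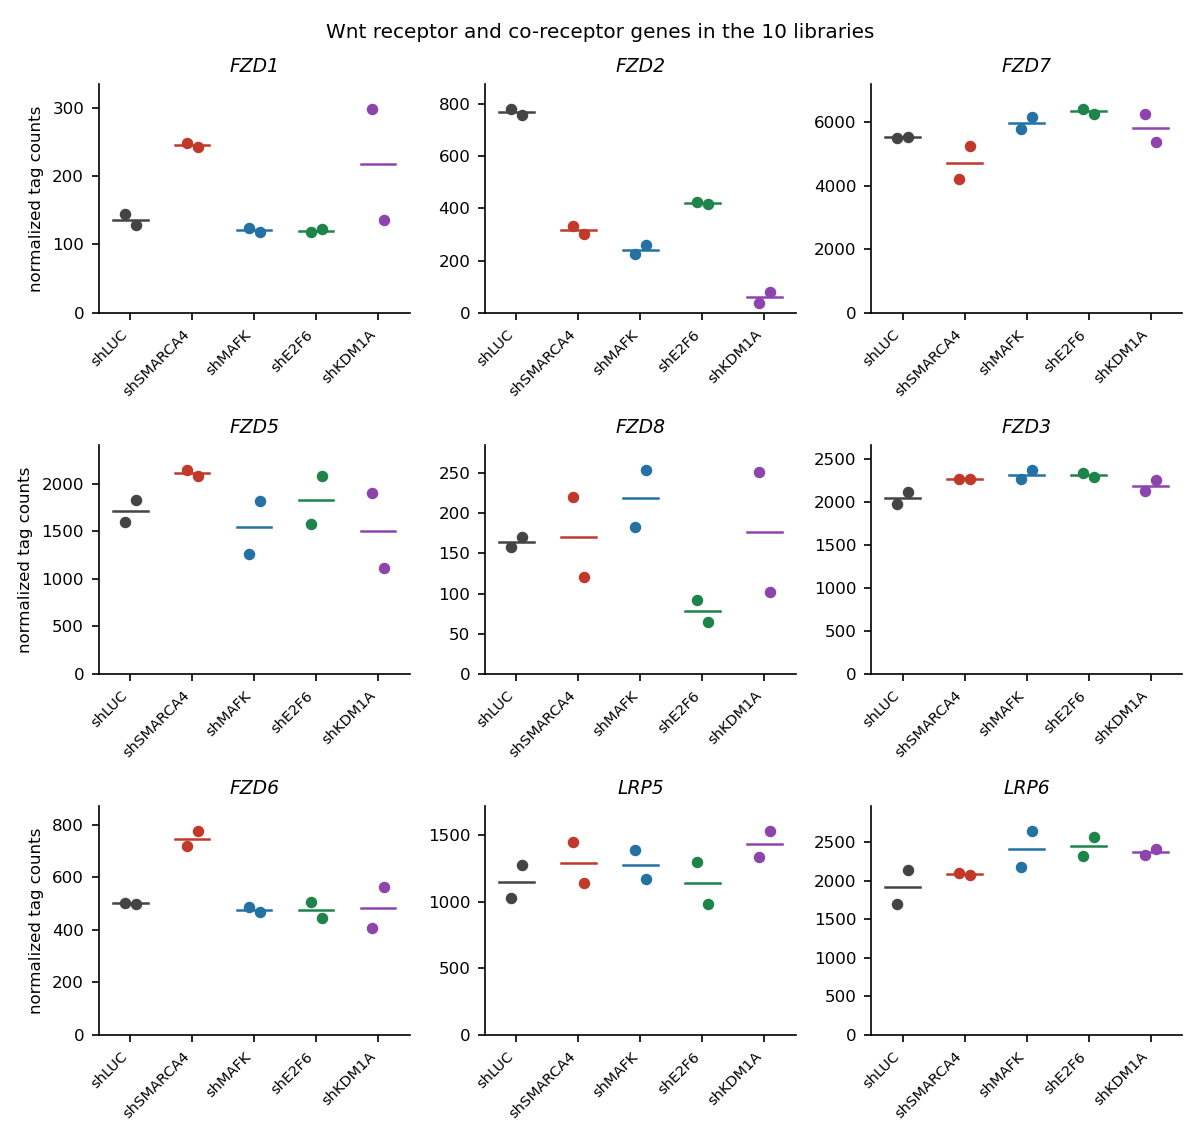
Normalized tag counts of the 9 receptor and co-receptor genes in each of the 10 libraries, by group; points are libraries, bars are means of 2, and each vertical axis starts at 0. FZD2 lies between 38 and 422 in the 8 knockdown libraries and at 755 and 780 in the controls, FZD6 is highest in shSMARCA4, and FZD8 is lowest in shE2F6.

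Neither FZD7 nor FZD1, the closest relatives of FZD2, lay below both controls in all 8 knockdown libraries. FZD7 (chromosome 2, 202034587 to 202038445, plus strand, a single exon) had 5498 and 5536 normalized tag counts in shLUC, 6408 and 6249 in shE2F6, 5788 and 6143 in shMAFK, and 6249 and 5367 in shKDM1A. In shSMARCA4 it had 4196 and 5235, which lay below the 8 other libraries. Its log2 change there was -0.24 (SE 0.16, limma adjusted p 0.531), and both shSMARCA4 libraries were below the 8 others for 8.41% of all rows. In shMAFK and shE2F6 the FZD7 changes were 0.11 and 0.20, with limma adjusted p of 0.954 and 1.

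FZD1 (chromosome 7, 91264364 to 91271326, plus strand, a single exon) was low in these cells. It had 144 and 128 normalized tag counts in shLUC, 118 and 122 in shE2F6, 124 and 118 in shMAFK, and 248 and 242 in shSMARCA4. The shKDM1A libraries held 298 and 136, so the higher one exceeded shSMARCA4 and the lower one lay among the controls. In shSMARCA4 the log2 change of FZD1 was 0.85 (SE 0.32), opposite in sign to that of FZD2 (limma adjusted p 0.209). Without both shKDM1A libraries it was 0.0162, so the call turned on whether the spread of that pair entered the error.

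Identical stretches shared between these relatives were counted. Of the 2063 stretches of 50 bases in the FZD2 transcript of GENCODE release 29, 2.67% also occur in another gene's transcript, in FZD1, FZD7 or FZD5. The share with other members was 0.463% for FZD1 and 0.525% for FZD7. How the authors counted reads with several matches is not given in the sources used here.

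FZD5 and FZD8 form the next subgroup, and neither passed the test. FZD5 (chromosome 2, 207762586 to 207769563, minus strand) had 1596 and 1828 in shLUC, 1908 and 1110 in shKDM1A, 1580 and 2082 in shE2F6, 1266 and 1820 in shMAFK, and 2147 and 2082 in shSMARCA4. Of the knockdowns only shSMARCA4 did not overlap the controls, where FZD5 differed by 0.31 on the log2 scale (SE 0.28, limma adjusted p 0.683). The share of all rows without overlap there was not counted, so nothing is read from this. FZD8 (chromosome 10, 35638249 to 35642278, minus strand, a single exon) had 158 and 170 in shLUC and 92 and 65 in shE2F6, where both libraries were the lowest of the 10. The other FZD8 values were 183 and 254 in shMAFK, 220 and 121 in shSMARCA4, and 252 and 102 in shKDM1A. In shE2F6 the log2 change of FZD8 was -1.07 (SE 0.43, limma adjusted p 0.956), and the limma adjusted p ran from 0.259 to 1 over the alternative fits. Both shE2F6 libraries lay below the 8 others for 2.98% of all rows. The annotation places MIR4683 within FZD8 on the same strand.

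FZD3 and FZD6 are the frizzleds best known for planar cell polarity. FZD6 (chromosome 8, 103298433 to 103332866, plus strand) had its highest values, 718 and 776, in the shSMARCA4 libraries, and the 8 others ran from 406 to 562. The shLUC values were 502 and 498. The log2 change of FZD6 in shSMARCA4 was 0.58 (SE 0.18, limma adjusted p 0.125), and the limma adjusted p was 0.0263 without both shKDM1A libraries. Both shSMARCA4 libraries exceeded the 8 others for 8.62% of all rows. An antisense gene, BAALC-AS1, overlaps FZD6, and whether the counting used strand is not given in the sources used here.

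FZD3 (chromosome 8, 28494205 to 28574268, plus strand) varied least of the members, with 1983 and 2122 in shLUC and from 2130 to 2376 in the knockdowns. Its log2 changes were 0.18 in shMAFK and shE2F6 and 0.15 in shSMARCA4 (SE 0.14 each), with limma adjusted p from 0.70 to 1. The gap between the highest control and the lowest knockdown library, 2122 against 2130, was smaller than the difference between the controls.

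The co-receptors LRP5 and LRP6 passed no test. LRP5 (chromosome 11, 68312609 to 68449275, plus strand) had 1026 and 1273 in shLUC and from 978 to 1530 elsewhere. LRP6 (chromosome 12, 12116025 to 12267012, minus strand) had 1701 and 2148 in shLUC and from 2082 to 2650 elsewhere, with the lowest value of the 10 in shLUC replicate 1. The shMAFK, shE2F6 and shKDM1A libraries, from 2185 to 2650, all exceeded both LRP6 controls. These groups share the same controls, and the share of all rows with this pattern was not counted. The LRP6 log2 changes were 0.36 in shE2F6, 0.33 in shMAFK and 0.13 in shSMARCA4 (SE 0.17 each). Their limma adjusted p lay between 0.653 and 0.987. BCL2L14 overlaps LRP6 on the opposite strand.

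Counted together against shLUC, 1 of the 9 members passed the threshold (limma adjusted p under 0.05 over all 14785 rows) in shSMARCA4, where 4.18% of all rows did. The 1 was FZD2, whose controls had part in its choice. That call was lost without the mean-variance trend (limma adjusted p 0.0566) and without any 1 library of shLUC, shSMARCA4, shMAFK or shE2F6 (limma adjusted p from 0.0762 to 0.238). Of the 8 other members, 0 passed with limma in shSMARCA4, and 2 (FZD1 and FZD6) had an unadjusted p under 0.05, a mark that 16.3% of all rows reached. In shMAFK 0 of 9 passed (0.0135% of all rows), and of the 8 others 0 had an unadjusted limma p under 0.05 (8.77% of all rows). In shE2F6 0 of 9 passed (0% of all rows), and 1 of the 8 others, FZD8, had an unadjusted limma p under 0.05 (5.09%). In shKDM1A 4 rows were past the threshold (0.0271% of all rows; 0.00676% as lower and 0.0203% as higher), FZD2 among them because that value chose it, and nothing is read from this. Without shKDM1A replicate 2, which leaves replicate 1 alone in its group, 3235 rows passed in shKDM1A, and without replicate 1, 5 did. The median log2 change of the 8 other members was 0.08 in shKDM1A, 0.03 in shE2F6, 0.13 in shMAFK and 0.16 in shSMARCA4, where the median of all rows lay between -0.02 and 0.01.

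In shKDM1A the 8 other members had log2 differences between -0.23 (FZD5) and 0.57 (FZD1). In the F-test among the other 3 knockdowns 0 of 9 members passed with limma (6.89% of all rows did), and 4 had an unadjusted p under 0.05 (21.3% of all rows). Those 4 were FZD1, FZD6, FZD7 and FZD8. The smallest limma adjusted F-test p belonged to FZD6 (0.0755). Without both shKDM1A libraries FZD1, FZD2, FZD6 and FZD8 passed that test, as did 2117 of the 14785 rows, against 1018 with them.

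**Figure D2:**
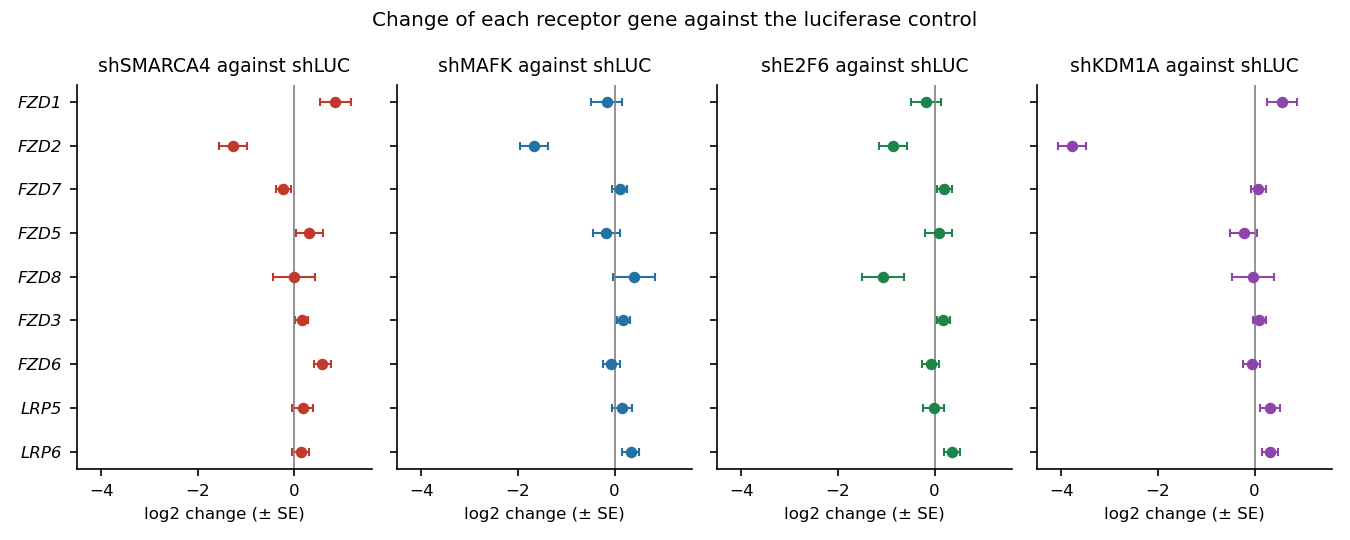
Log2 change of each member against shLUC, with its SE from the shared fit, in 1 panel per knockdown; all panels have the same axis. FZD2 lies left of 0 in each panel, from -0.87 in shE2F6 to -3.77 in shKDM1A, while the other 8 genes lie between -1.07 and 0.85.

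To compare levels between genes, means over the 10 libraries were divided by the merged exon length of GENCODE release 29. FZD7 was the highest, with 1468 normalized tag counts per kb, and its lowest library (1087) exceeded every library of the other members. FZD5 (260 per kb), LRP6 (218), LRP5 (204), FZD2 (171) and FZD3 (162) followed, and their ranges over libraries overlapped from each to the next. FZD6 stood at 132 per kb, between 99.9 and 191. FZD8 (40.1 per kb) and FZD1 (24.1 per kb) were the lowest, overlapped each other, and lay below every FZD6 library. FZD2 had the largest ratio of highest to lowest library, with a mean of 363 per kb in shLUC, above the highest library of any other member except FZD7, and 27.9 per kb in shKDM1A. The exon length of FZD2 in that annotation is 2112 bases, against a gene span of 3779 bases in RefSeq. With the longer one its mean is 95.5 per kb, below FZD6, so its place in the order is uncertain.

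The remaining frizzled rows of the table, FZD4 and FZD9, are not among the 9. FZD4 had 575 and 534 normalized tag counts in shLUC and from 536 to 777 in the knockdowns. FZD9 was low, with 54 and 38 in shLUC, and highest in shKDM1A (128 and 76) and shE2F6 (112 and 106). Its log2 change in shE2F6 was 1.25 (SE 0.40, limma adjusted p 0.885). FZD10 had no row in the table.

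The rest of the pathway was examined through lists of 113 genes by role, of which 79 were in the table. In shSMARCA4 7 of the 79 passed, 5 higher and 2 lower, and 21 had an unadjusted p under 0.05. Of all rows 1.67% passed as higher and 2.51% as lower, and 16.3% had an unadjusted p under 0.05. In shMAFK 0 of 79 passed with limma (0.0135% of all rows), with 15 at an unadjusted p under 0.05 (8.77%). In shE2F6 0 of 79 passed with limma (0% of all rows), with 10 at an unadjusted p under 0.05 (5.09%). In shKDM1A 0 of 79 passed, with 14 at an unadjusted limma p under 0.05 (11.5% of all rows). The median log2 change over the 79 was 0.08 in shSMARCA4 and between -0.06 and 0 in the other knockdowns. In the F-test among shSMARCA4, shMAFK and shE2F6 12 of the 79 passed with limma, where 6.89% of all rows did. Those 12 were WNT3, WLS, SFRP1, ROR2, APC2, LEF1, CTNNBIP1, CCND1, SP8, CELSR1, PRICKLE1 and DACT1.

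Among ligands, 3 of 19 were in the table, and WNT3, a ligand of the canonical branch needed for the primitive streak, rose in shSMARCA4. It had 32 and 38 normalized tag counts in shLUC and 562 and 210 in shSMARCA4 (log2 change 3.26, SE 0.62, limma adjusted p 0.0222). The most abundant ligand row was WNT5A, with 200 and 198 in shLUC and 208 and 252 in shSMARCA4. Both genes for ligand secretion, PORCN and WLS, were measured, and neither passed against shLUC. PORCN, the higher of them, had 214 and 216 in shLUC and from 66 to 206 in the knockdowns. All 8 knockdown libraries thus lay below both controls, as for 1.86% of all rows. WLS passed the F-test among shSMARCA4, shMAFK and shE2F6 (limma adjusted F-test p 0.0214). It had 240 and 232 in shSMARCA4, 142 and 126 in shMAFK, and 96 and 98 in shE2F6.

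Secreted inhibitors numbered 6 of 13. SFRP1, a soluble frizzled-related protein that binds Wnt ligands, had the highest mean of all listed genes and fell in shSMARCA4. Its values were 11638 and 13161 in shLUC and 4527 and 4750 in shSMARCA4, with no overlap (log2 change -1.42, SE 0.21, limma adjusted p 0.00886).

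Of the other receptors and co-receptors 8 of 9 were measured, and ROR2, a tyrosine kinase receptor for WNT5A, rose in shSMARCA4. ROR2 had 210 and 204 in shLUC and 499 and 446 in shSMARCA4 (log2 change 1.18, SE 0.16, limma adjusted p 0.00537). Its values in the remaining knockdowns, from 246 to 426, were also above both controls. All 8 knockdown libraries lay above both controls for 2.06% of all rows. GPC4, a glypican, had the highest mean of this list, with 7576 and 7313 in shLUC and from 4309 to 7313 in the knockdowns. A list built around receptor turnover held 13 genes, of which 7 were measured. Of these, RSPO4, LGR4, RNF43 and ZNRF3 belong to the R-spondin module, which sets how many frizzleds stay at the surface. The list also held TMEM67, TRABD2A and TRABD2B, which are outside that module and are not read as receptor turnover genes. With limma 0 of the 7 passed in any knockdown. At an unadjusted limma p under 0.05 there was 1 of 7 in each, TRABD2A every time, against the same 2 control libraries. Of all rows 16.3% (shSMARCA4), 8.77% (shMAFK), 5.09% (shE2F6) and 11.5% (shKDM1A) reached that mark. None of the R-spondin module genes named here did. LGR4, an R-spondin receptor with the highest mean of this list, had 2039 and 2112 in shLUC and from 1780 to 4065 elsewhere.

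Dishevelled and the destruction complex were measured in full, 19 of 19, and 0 passed against shLUC with limma in any knockdown, and an unadjusted p under 0.05 was reached by 4 in shKDM1A, 2 in shE2F6, 4 in shMAFK and 3 in shSMARCA4 (11.5%, 5.09%, 8.77% and 16.3% of all rows). Beta-catenin itself, CTNNB1, had the highest mean of this list, with 7042 and 7211 in shLUC and from 4808 to 8376 elsewhere. Its log2 changes lay between -0.36 and -0.03. APC2, a relative of APC, was the row of this list that passed the F-test among the 3 knockdowns. It had 348 and 320 in shMAFK, 30 and 42 in shSMARCA4, and 30 and 34 in shE2F6 (limma adjusted F-test p 0.00284). The shLUC libraries held 63 and 153.

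All 14 nuclear factors were measured, and LEF1, which binds DNA with beta-catenin, rose in shSMARCA4. It had 51 and 66 in shLUC and 168 and 202 in shSMARCA4 (log2 change 1.65, SE 0.32, limma adjusted p 0.0231). TLE1, a co-repressor with the highest mean of these, had 3190 and 2870 in shLUC and from 2122 to 6012 elsewhere. Among beta-catenin target genes, 11 of 17 in the table, LEF1 is counted again and SP8 rose. SP8, an SP-family transcription factor, had 119 and 120 in shLUC and 475 and 473 in shSMARCA4 (log2 change 1.98, SE 0.21, limma adjusted p 0.00179). AXIN2, often used as a readout of beta-catenin activity and named here after its values were seen, had 389 and 444 in shLUC and 552 and 382 in shSMARCA4 (limma adjusted p 0.83). It had 602 and 674 in shMAFK (limma adjusted p 0.397) and 778 and 734 in shKDM1A, above both controls. SP5, also named after its values were seen, had 2 in both shLUC libraries and 592 and 273 in shSMARCA4, but did not pass (limma adjusted p 0.12). CCND1, with the highest mean of the list, had 5846 and 7919 in shMAFK and 1998 and 2576 in shLUC (limma adjusted p 0.179). It passed the F-test among the 3 knockdowns (limma adjusted F-test p 0.0288), with 2830 and 1604 in shSMARCA4 and 2430 and 1572 in shE2F6.

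In planar cell polarity, 13 of 14 genes were in the table. DACT1, a Dishevelled-binding regulator, rose in shSMARCA4 from 745 and 599 to 3780 and 2757 (log2 change 2.27, SE 0.44, limma adjusted p 0.0231). PRICKLE1, a core polarity component, fell from 608 and 704 to 250 and 269 (log2 change -1.33, SE 0.15, limma adjusted p 0.00263). SCRIB, a polarity scaffold with the highest mean of this list, had 4527 and 5536 in shLUC and from 3902 to 8223 elsewhere.

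Of these 7 genes, SP8 and PRICKLE1 passed in all 22 alternative fits. The calls of WNT3, SFRP1, ROR2, LEF1 and DACT1 were each lost when either shLUC library was left out (limma adjusted p from 0.0525 to 0.18). Those of WNT3, SFRP1, LEF1 and DACT1 were also lost without shSMARCA4 replicate 1 (from 0.0581 to 0.178), and those of SFRP1, LEF1 and DACT1 without shSMARCA4 replicate 2 (from 0.055 to 0.17). LEF1 also missed without either shMAFK library (limma adjusted p 0.0515 and 0.0524), and WNT3 with quantile normalization (0.0836). The streak, mesoderm and endoderm markers given above differed together with these 7 genes in shSMARCA4, with the higher sums in replicate 1, and of the 7 genes WNT3, DACT1 and ROR2 were higher in replicate 1, LEF1, SFRP1 and PRICKLE1 higher in replicate 2, and SP8 nearly equal (475 and 473). FZD1 and FZD6 were nearly equal in the 2 shSMARCA4 libraries. The part of these markers in the results was not tested, and in bulk samples fewer cells of a type and less RNA per cell cannot be told apart.

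**Figure D3:**
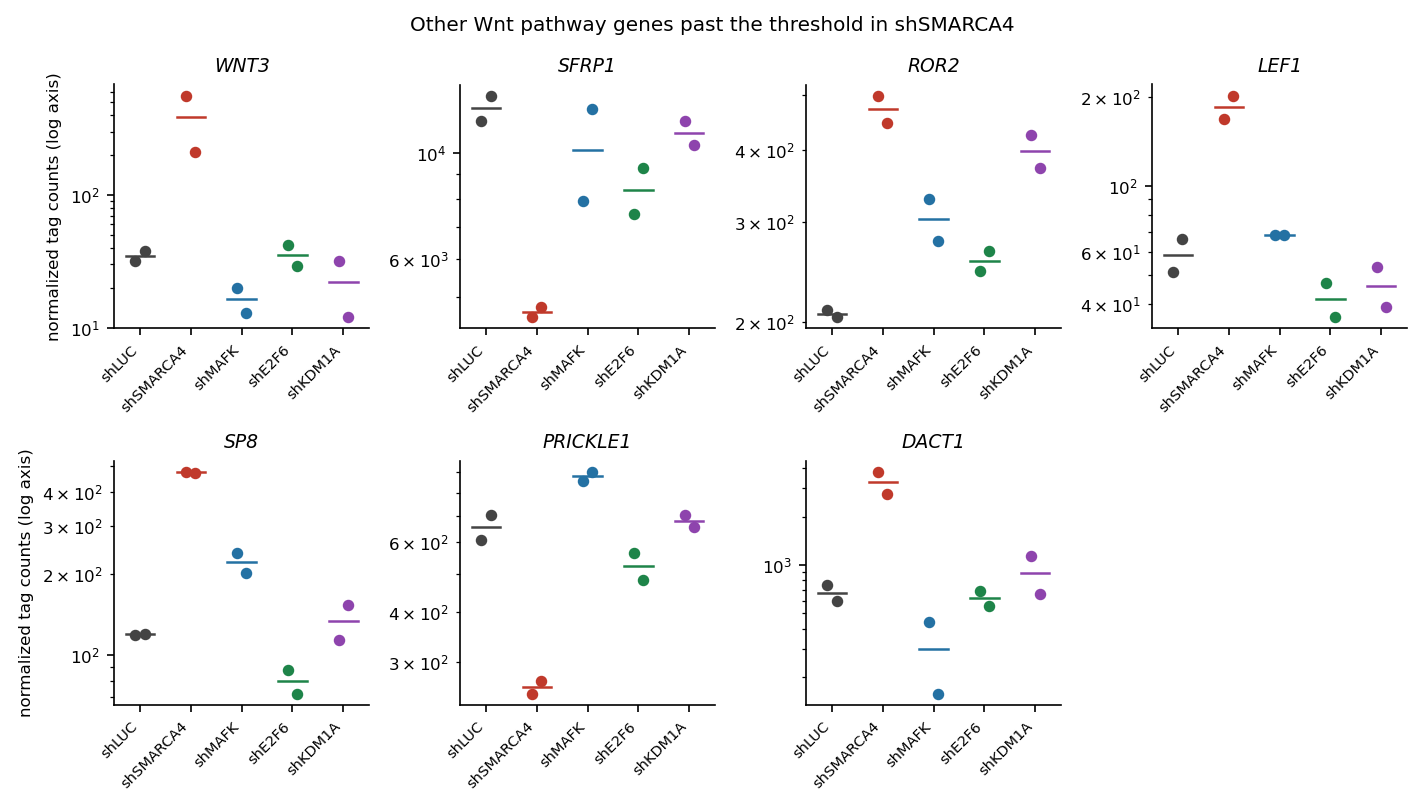
Normalized tag counts, on log axes, of the 7 listed Wnt pathway genes that passed the threshold in shSMARCA4; points are libraries and bars are means of 2. WNT3, ROR2, LEF1, SP8 and DACT1 are higher in both shSMARCA4 libraries than in the controls, SFRP1 and PRICKLE1 lower.

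In shKDM1A the 3 listed genes with the largest difference from shLUC were CER1 (log2 difference -2.07, SE 1.89), PRICKLE3 (-1.63, SE 0.75) and APC2 (1.62, SE 0.40). CER1 had 55 and 0 in shKDM1A against 44 and 21, and PRICKLE3 had 11 and 86 against 114 and 86, so both rested on 1 library. APC2 had 369 and 252 against 63 and 153, with no overlap, a pattern whose share of all rows was not counted. The FZD2 difference of -3.77 was larger than each of them, but FZD2 was chosen for that value, so nothing is read from this.

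The genes around FZD2 on chromosome 17 were set beside it, a comparison chosen after the values were seen. The table held 20 other genes whose start lies within 500 kb of that of FZD2. Their log2 differences in shKDM1A ran from -0.61 to 1.51. Of the 20, 0 had all 8 knockdown libraries below both controls, where 1.86% of all rows did, so this count of 0 says little. The nearest on either side were GPATCH8, 54 kb upstream, with -0.25 in shKDM1A, and MEIOC, 98.9 kb downstream, with 0.22. In the other 3 knockdowns the 20 genes ran from -0.39 to 1.15, and 0 passed with limma. Of all rows 4.18% passed in shSMARCA4, 0.0135% in shMAFK and 0% in shE2F6. C1QL1 gave the upper end in shKDM1A and shSMARCA4.

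**Figure D4:**
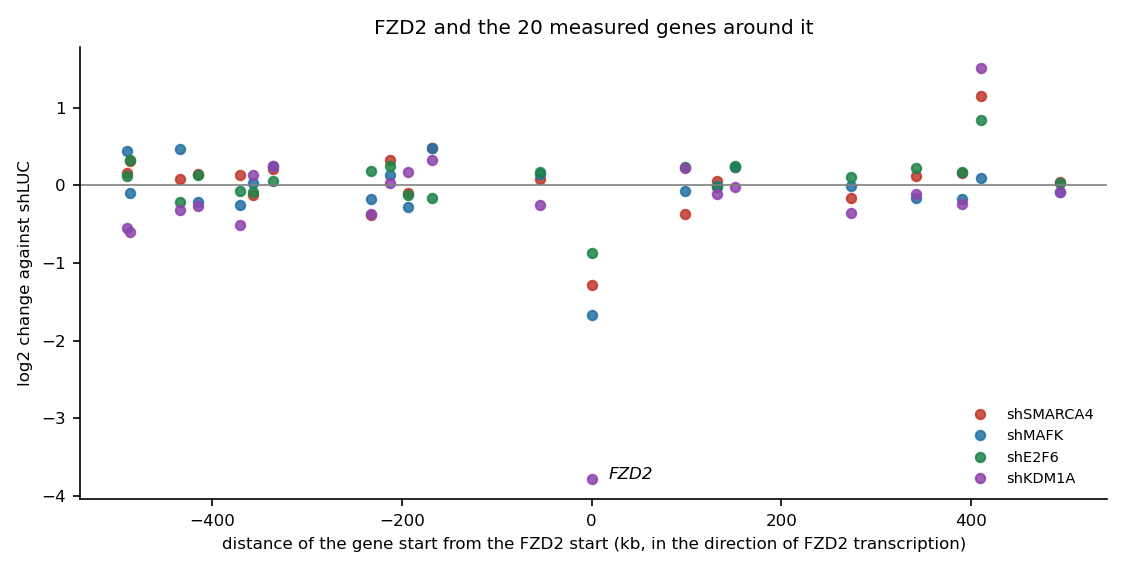
Log2 change against shLUC, in each knockdown, of FZD2 and of the 20 measured genes whose start lies within 500 kb of it, plotted by distance in kb. FZD2 lies below every other point in each knockdown, and C1QL1 gives both points above 1.

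The genes with the pattern most like that of FZD2 were sought over the 10 libraries by Pearson correlation of log2 values among 13806 genes. The 5 highest were DCTN3 (r = 0.93), YAE1 (0.92), ASXL1 (0.92), RAD18 (0.91) and ARL15 (0.91). Each was lowest in the shKDM1A libraries, but over a far smaller range, such as DCTN3 from 91 to 194. The 3 most opposite were CAPG (r = -0.96), CTCFL (-0.95) and EFHD1 (-0.95). CTCFL had 96 and 82 in shLUC, 1140 and 995 in shKDM1A, 151 and 131 in shE2F6, 252 and 284 in shMAFK, and 100 and 126 in shSMARCA4. The 10 points share 5 groups and so are not independent. Over the 8 libraries without them r was 0.75 for DCTN3, 0.54 for RAD18, -0.92 for CAPG, -0.93 for EFHD1 and -0.79 for CTCFL.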

How the data were processed

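The table of single libraries was used; the authors also deposited a table of group means, which was not used here. The deposited values are scores, whole numbers with nearly the same total in all libraries, so they were treated as normalized values and not as counts. The median, taken in shLUC replicate 1 alone, was 594. STAR, STARsolo and the build hg38 are named, per the submitters' processing notes, with no role. The counting, the annotation and the normalization are not given in the sources used here. Single values recurred between libraries and genes, such as 35710 for POU5F1 in both shLUC libraries and for DNMT3B in shE2F6 replicate 1. Equal values in 2 replicates can therefore come from the normalization. With quantile normalization of all rows the FZD2 change stayed at -1.28 in shSMARCA4 and moved to -3.54 in shKDM1A, so that alternative changed little. Columns were matched to samples by the sample descriptions and groups by the titles (0 columns not mapped).

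Rows with a mean of at least 10 (all 14785) were analysed as log2(value + 1) with limma 3.58.1 in R 4.3.3, as a two-sided test in a single model of the 10 libraries, with a mean-variance trend, 5 residual degrees of freedom and Benjamini-Hochberg adjustment over all rows. The pseudocount of 1 understates changes of low rows. The fit was tested on simulated data. P-values measure the spread between 2 libraries a group. Positions and exon lengths are from GENCODE release 29 (all 13808 gene identifiers were found there), promoters from RefSeq. Plots used Python 3.11.15 with pandas 2.3.3 and matplotlib 3.10.9.

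The members and lists were chosen with earlier results of these data known. Named by rule were all members, the targets, listed Wnt genes past the threshold in shSMARCA4, shMAFK or shE2F6, the 3 with the largest shKDM1A difference, the member of each list with the highest mean, and the 5 genes most like and 3 most unlike FZD2. Alternatives covered the pseudocount, the filter, rescaling, gene rows alone, the replicate block, which libraries were fitted, how the variance was modelled, and leaving out each library. The alternative with no filter was the same fit as the main one, because the filter removed no row.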

Additional observations from a re-analysis of the deposited data

How the results depend on the processing

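The count of members past the threshold in shSMARCA4 was 1 as reported, 0 without the mean-variance trend, 3 without both shKDM1A libraries, 2 with only the groups compared and 3 with group weights, and ran from 0 to 3 when single libraries were left out (0 without any 1 library of the other 4 groups, 3 without either shKDM1A library). All rows past in shSMARCA4, 618 as reported, moved with it: 1162 without both shKDM1A libraries, 919 with only the groups compared, 1306 with group weights, and 89 to 1159 with single libraries left out, although 606 passed without the trend. In shMAFK (2 rows past as reported, 487 with group weights, 34 without both shKDM1A libraries) it was 0 as reported and 1 (FZD2) with quantile normalization, group weights, only the groups compared or without both shKDM1A libraries, and ran from 0 to 1 with single libraries left out. In shE2F6 it was 0 in all 22 alternatives. In the F-test among the 3 other knockdowns it was 0 as reported, 4 with group weights, 3 with only the groups compared and 4 without both shKDM1A libraries (rows past 1018, 2125, 1466 and 2117), and ran from 0 to 4 with single libraries left out. The count of other Wnt genes in shSMARCA4, 7 as reported, was 11 without both shKDM1A libraries and 13 with group weights, and ran from 2 to 11 with single libraries left out; this count and the fits of single named genes were added after seeing the data. Every alternative that raised the member count in shSMARCA4 gave the shKDM1A pair less or no part in the error. The FZD2 log2 difference in shKDM1A was -2.93 with a pseudocount of 50, and -4.30 to -3.25 with single libraries left out. In no alternative did the log2 change of FZD2 reverse in any of the 4 knockdowns, nor that of FZD1 or FZD6 in shSMARCA4. The same held for FZD8 in shE2F6 and the 7 Wnt genes past the threshold in shSMARCA4. None of these overlapped the controls, so a change of pseudocount, filter or error model, or leaving out a library, could not reverse them. Nothing is read from this, and those of other genes were not refitted. Where a group was left with 1 library, that library was assumed to vary like the others. Replicate numbers were not treated as pairs because only 2 of 10 correlations of replicate deviations exceeded 0.1 (from -0.05 to 0.337). The highest was between shSMARCA4 and shE2F6, which the F-test compares, so replicates of these groups may share a deviation. With the replicate block the member counts were 1 in shSMARCA4, 0 in shMAFK and shE2F6 and 0 in the F-test, and the FZD2 difference in shKDM1A was -3.77. Read depth is unknown, so the error of low values such as 38 cannot be set from counts.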
